A study of Mus musculus with 9 samples.

Results

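The genes of antigen presentation and costimulation described here were H2-Aa, H2-Ab1, H2-Eb1, H2-DMa, Cd74, Ciita, Cd40, Cd80, Cd86 and Cd274, measured on 9 mouse arrays. They were found as the non-control probes whose gene name was one of these symbols, which gave 10 genes and 13 probes among 34650 gene names and 55681 probes. A probe was tested when it was well above the local background on at least 1 of the 9 arrays. This left 9 of the 10 genes and 12 of the 13 probes, and the probe of Ciita was the one below background everywhere.

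Microglia present peptides to CD4 T cells on MHC class II, a pair of chains that is loaded with peptide in the endosome. The invariant chain guards the groove on the way there, H2-DM exchanges its remnant for peptide, and the transactivator CIITA switches the class II genes on together. A T cell that meets its peptide also reads costimulatory ligands such as CD80 and CD86 and inhibitory ones such as PD-L1, so these genes are commonly read as the antigen-presenting side of the microglial state.

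All 3 groups were primary microglia of fms-EGFP (MacGreen) mice, in which a Csf1r (fms) promoter drives EGFP in myeloid cells. The paper gives a C57BL6 background for its mice. The cells were taken from the brains of pups of postnatal day 0 to 1 after the meninges were peeled off. The mixed cultures were grown for about 14 d with GM-CSF at 5 ng/ml, and microglia were then shaken off and left to settle for 24 h. Control microglia received no apoptotic cells, Ph3h microglia were fed for 3 h and Ph24h microglia for 24 h with apoptotic SH-SY5Y cells. These are human neuroblastoma cells, here labeled with the dye CM-DiI (5 µM) and killed with staurosporine (3 µM, 4 h). Each group had 3 arrays from independent experiments. No culture kept unfed for 3 or 24 h was analysed here, so feeding and time in culture cannot be told apart. In whole cultures, fewer cells of a type and less RNA per cell cannot be told apart either.

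Levels are log2 intensities relative to the 75th percentile of the same array, so 0 is the brightness of a probe at that percentile. The percentile itself ran from 355.5 to 472.5 on control arrays, from 184.9 to 211.3 on Ph3h arrays and from 156.2 to 161.3 on Ph24h arrays. A change therefore describes a probe relative to the rest of its array. Scaling on the array median instead shifted every change by −0.24 at 3 h and −0.51 at 24 h. Adjusted p values are from limma, fitted over the 3 groups and adjusted by the Benjamini-Hochberg method over 24101 genes, with 0.05 as the threshold. The number of arrays, 3 per group, limits the precision of every value.

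The class II chains share a promoter design, an X box followed by a Y box. Of the promoter windows in the RefSeq table (GRCm38.p6), those of H2-Aa and H2-Eb1 are shown because they carry both elements in nearly the same place. Capitals mark the X box core CTNGCAACT, whose letters were read off this pair, and the Y box core ATTGG that follows it. Both cores were searched on both strands. The H2-Eb1 stretch also holds a Y box core on the opposite strand, written ccaat, which was left in lower case. The H2-Aa stretch is chr17:34287837-34287937 on the minus strand, and the H2-Eb1 stretch is chr17:34305743-34305842 on the plus strand.
H2-Aa: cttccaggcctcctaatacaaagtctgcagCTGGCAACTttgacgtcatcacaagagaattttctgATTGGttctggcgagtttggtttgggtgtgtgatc
H2-Eb1: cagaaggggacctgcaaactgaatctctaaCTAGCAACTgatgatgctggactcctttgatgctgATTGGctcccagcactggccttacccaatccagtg
The X box core began 84 bases before the transcription start in H2-Aa and 94 bases before it in H2-Eb1, with 27 and 26 bases between the cores. The X box core was present in 0.898% of 32851 promoter windows of 300 bases and the Y box core in 37.4%. As the X box letters were read off this pair, its matches to them were fixed in advance. The windows of H2-DMa, Cd80 and Cd274 held no match to these exact letters, which cannot show that an X box is absent there. The matches are descriptions of letters, and the table had no entry for H2-Ab1, Ciita, Cd40 or Cd86. The promoter of Cd74 was left out of the search.

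H2-Ab1, the beta chain of the class II molecule I-A, had the largest change of the members. Its level was −0.47, −0.40 and −0.57 in control, −1.07, −1.04 and −0.86 in Ph3h and 3.00, 2.91 and 2.90 in Ph24h microglia. The 3 groups did not overlap, and the 24 h arrays stood far above both others. H2-Ab1 fell by 0.51 at 3 h (log2, SE 0.08, n = 3 per group, limma adjusted p = 0.0011) and was 10.68-fold higher than control at 24 h (log2 3.42, 95% interval 3.23 to 3.60, limma adjusted p = 8.2e-08). From 3 to 24 h the change was 15.2-fold (limma adjusted p = 4.4e-07).

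The rise of H2-Ab1 at 24 h did not rest on the scaling. Its scanned intensity ran from 240 to 340 on control arrays, from 90.0 to 110 on Ph3h arrays and from 1175 to 1258 on Ph24h arrays. Among the 12 tested probes, the 2 probes of H2-Ab1 were the only ones brighter on every Ph24h array than on every control array before scaling. The second probe changed by −0.39 at 3 h and by 3.60 at 24 h, both log2. These probes overlap on chromosome 17 (mm9, 34406296 to 34406355 and 34406305 to 34406363) over 51 of their 60 bases. Within the overlap they differ at 1 base, T51C, counted from the first base of the upstream probe. Bases 31 to 60 of the upstream probe and the matching bases of the other are shown with the differing base in capitals, since the pair is one site measured with a mismatch rather than independent evidence.
upstream probe: agattacaaataaacgagacTcagactctg
downstream probe: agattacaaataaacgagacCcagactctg

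**Figure D1:**
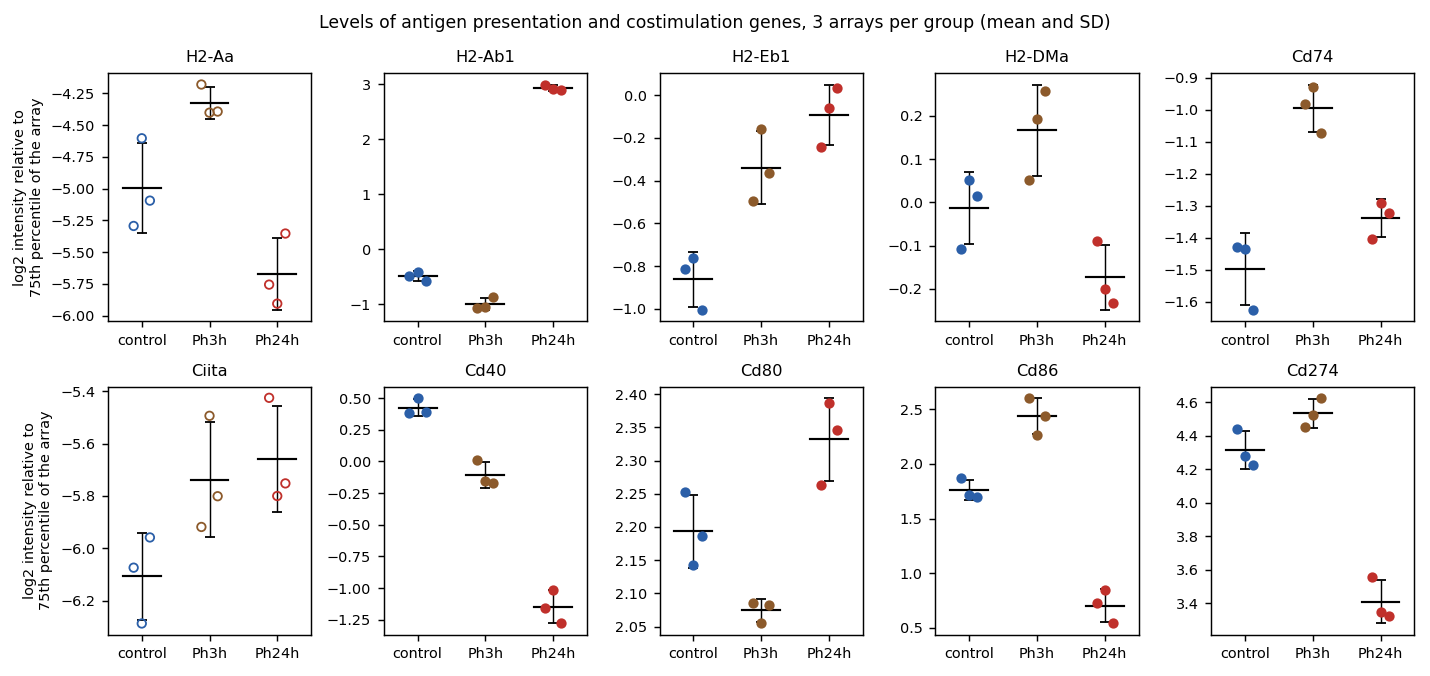
Level of each gene (log2 intensity relative to the 75th percentile of its array, vertical axes differ) in control, Ph3h and Ph24h microglia. Points are the 3 arrays of a group, bars the mean and SD, and open points belong to groups in which the probe was not well above background on all 3 arrays. H2-Ab1 sits near −0.5 in control and near 2.9 in Ph24h, while Cd40, Cd86 and Cd274 are lowest in Ph24h.

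H2-Eb1, Cd74 and H2-DMa, the other class II genes measured on all arrays, changed less than H2-Ab1 at 24 h. H2-Eb1, the beta chain of I-E, was at −0.81, −0.76 and −1.01 in control, −0.49, −0.16 and −0.37 in Ph3h and −0.24, −0.06 and 0.03 in Ph24h microglia. All Ph3h and Ph24h arrays were above all control arrays, and the fed groups overlapped. Whether these cells form an I-E molecule was not tested. H2-Eb1 was 0.52 higher at 3 h (log2, SE 0.12, limma adjusted p = 0.0071) and 0.77 higher at 24 h (limma adjusted p = 0.00085), with 0.25 between the fed groups (limma adjusted p = 0.13). With median scaling both changes missed the threshold, at 0.28 and 0.26 (limma adjusted p = 0.11 for each), and that between the fed groups turned to −0.015.

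H2-Aa, the alpha chain of I-A, could not be followed at this signal. Its probe was well above background on 1 control array and on no Ph3h or Ph24h array. Levels were −5.29, −4.60 and −5.09 in control, −4.18, −4.40 and −4.39 in Ph3h and −5.76, −5.91 and −5.35 in Ph24h, and the scanned intensity was 2.61 to 16.96 over all arrays. The fit passed the threshold in both directions (0.67 at 3 h, limma adjusted p = 0.027, and −0.67 at 24 h, limma adjusted p = 0.023), but no fold is given between levels at background. Both calls were lost with the normexp background (0.05 and −0.12). The 3 h call was also lost with quantile normalization (0.42, limma adjusted p = 0.12), median scaling (0.43, limma adjusted p = 0.092), the value table of the authors (0.42, limma adjusted p = 0.12), a variance trend (limma adjusted p = 0.21) and on slide 1 alone (0.66, limma adjusted p = 0.11). It was lost as well without control 1, control 3 or any one Ph3h array (0.52 to 0.71), and the 24 h call with a variance trend (limma adjusted p = 0.19), with its 2 groups fitted alone (limma adjusted p = 0.052) and without control 2, Ph24h 1 or Ph24h 2 (−0.63 to −0.48). The counts of changed members below include H2-Aa.

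Cd74, the invariant chain, was at −1.43, −1.44 and −1.63 in control, −0.98, −0.93 and −1.07 in Ph3h and −1.40, −1.29 and −1.32 in Ph24h microglia. The Ph3h arrays were highest, without overlap. Cd74 was 0.50 higher at 3 h (log2, SE 0.08, limma adjusted p = 0.0011), lost with median scaling (0.26, limma adjusted p = 0.069), and fell by 0.34 from 3 to 24 h (limma adjusted p = 0.0084). At 24 h it was 0.16 above control (limma adjusted p = 0.11), and this difference was −0.02 with quantile normalization, −0.03 in the value table deposited by the authors and −0.35 with median scaling.

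H2-DMa, a chain of the peptide exchanger H2-DM, was at −0.11, 0.05 and 0.01 in control, 0.05, 0.19 and 0.26 in Ph3h and −0.09, −0.20 and −0.23 in Ph24h microglia. The control arrays lay between and overlapped both other groups. Neither time passed the threshold against control (0.18, limma adjusted p = 0.092, −0.06 with median scaling, and 0.24 without Ph3h 1, limma adjusted p = 0.045; −0.16, limma adjusted p = 0.11), while the difference from 3 to 24 h did (−0.34, limma adjusted p = 0.01). It was −0.27 on slide 1 alone (limma adjusted p = 0.13) and −0.18 with the normexp background (limma adjusted p = 0.054).

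Ciita, the class II transactivator, stayed below the level called above background on all 9 arrays, with scanned intensities of 2.80 to 7.01. Its level is therefore unknown in all 3 groups. With no filter on dim probes the fit gave 0.37 at 3 h (limma adjusted p = 0.081) and 0.45 at 24 h (limma adjusted p = 0.036), but both groups were below background and no change is read from these values.

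The unequal change within the class II pathway was also measured as the log2 ratio of H2-Ab1 to another member on the same array, which a single scaling factor per array cannot move, though quantile normalization can. Which pairs were taken was chosen after their values were seen. The ratio of H2-Ab1 to Cd74 ran from 0.95 to 1.06 on control arrays, from −0.11 to 0.21 on Ph3h arrays and from 4.20 to 4.40 on Ph24h arrays, a change of −1.01 at 3 h and 3.26 at 24 h. Against H2-Eb1 the ratio changed by −1.03 and 2.65, and against H2-DMa by −0.69 and 3.58. No ratio overlapped with control at either time (two-sided exact permutation test, p = 0.1 for each, the smallest that 3 against 3 arrays allow).

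Of the costimulatory genes, Cd40 fell at both times. Cd40, the receptor through which helper T cells act on the presenting cell, was at 0.38, 0.50 and 0.39 in control, 0.01, −0.16 and −0.17 in Ph3h and −1.15, −1.01 and −1.28 in Ph24h microglia. The groups were in steps without overlap. Cd40 fell by 0.53 at 3 h (log2, SE 0.09, limma adjusted p = 0.0017) and was 2.97-fold lower than control at 24 h (−1.57, limma adjusted p = 5.8e-06).

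Cd86, a ligand of CD28 and CTLA-4 on T cells, was at 1.87, 1.71 and 1.70 in control, 2.60, 2.27 and 2.44 in Ph3h and 0.73, 0.85 and 0.54 in Ph24h microglia. Ph3h arrays were above and Ph24h arrays below all control arrays. Cd86 was 0.68 higher at 3 h (log2, SE 0.11, limma adjusted p = 0.0018) and 2.08-fold lower at 24 h (−1.06, limma adjusted p = 0.00014), a difference of −1.73 between the fed groups (limma adjusted p = 2e-05). A second Cd86 probe, designed on another transcript record, was well above background on 1 Ph3h array only. Averaged with it, the 24 h change of Cd86 became 0.03 (limma adjusted p = 0.94).

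Cd80, the other ligand of CD28 and CTLA-4, gave a different answer from each of its probes. The brighter probe was at 2.25, 2.14 and 2.19 in control, 2.09, 2.05 and 2.08 in Ph3h and 2.26, 2.39 and 2.35 in Ph24h microglia. It missed the threshold at 3 h (−0.12, limma adjusted p = 0.12) and at 24 h (0.14, limma adjusted p = 0.066), and rose by 0.26 between them (SE 0.06, limma adjusted p = 0.008), a difference that was −0.01 with median scaling. The 24 h value passed with quantile normalization (0.22, limma adjusted p = 0.0085) and turned to −0.37 with median scaling (limma adjusted p = 0.0047).

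The dimmer Cd80 probe was at −2.19, −2.43 and −2.41 in control, −1.51, −1.29 and −1.46 in Ph3h and −1.04, −1.12 and −1.08 in Ph24h microglia. It stepped up without overlap, by 0.92 at 3 h and 1.26 at 24 h (log2), although its scanned intensity, 67.0 to 104 in control and 72.1 to 76.4 in Ph24h arrays, overlapped between these groups. The average of both probes was 0.40 higher at 3 h and 0.70 higher at 24 h (limma adjusted p = 0.0015 and 6.8e-05). No direction is therefore given for Cd80 as a gene. The probes lie at positions 872 and 1457 of the same transcript, and the first 30 bases of each are shown in lower case to tell them apart.
probe at 872: ttcaatacgactcgcaaccacaccattaag
probe at 1457: aaaggagaggtgcctagtcttactgcaact

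**Figure D2:**
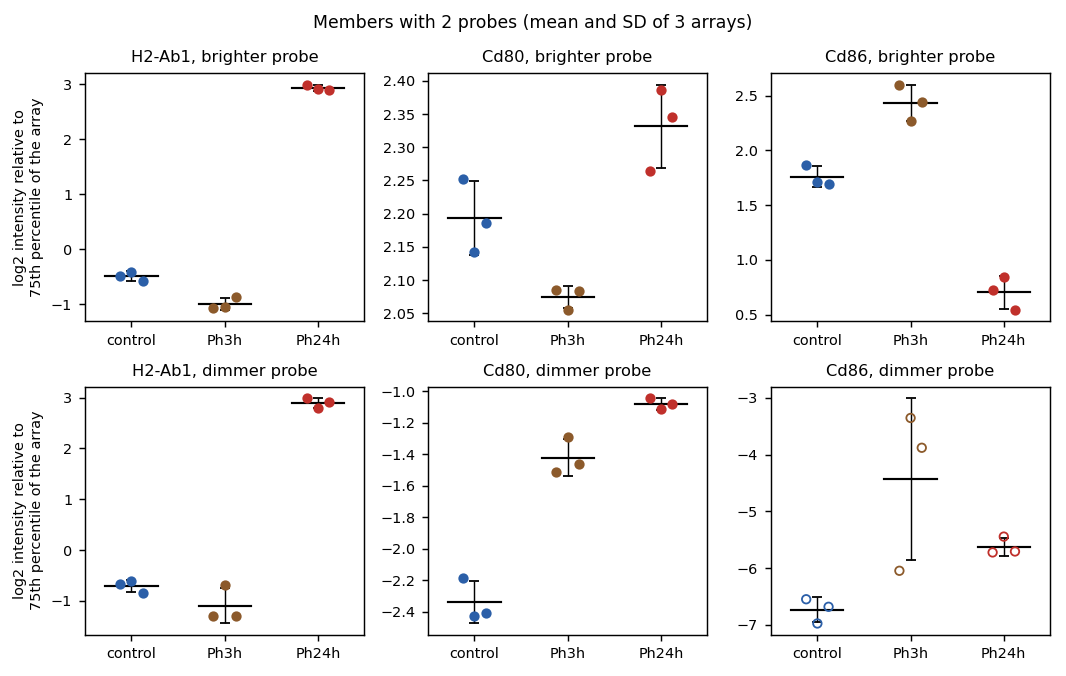
Both probes of H2-Ab1, Cd80 and Cd86 (log2 intensity relative to the 75th percentile of the array) in control, Ph3h and Ph24h microglia, with the 3 arrays, mean and SD. Open points mark groups not well above background on all 3 arrays. The H2-Ab1 probes move alike, the Cd80 probes do not, and the dimmer Cd86 probe is at background.

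Cd274 encodes PD-L1, which inhibits T cells through PD-1. Its level was 4.44, 4.28 and 4.22 in control, 4.45, 4.52 and 4.63 in Ph3h and 3.56, 3.35 and 3.32 in Ph24h microglia. All Ph24h arrays were below all others. Cd274 was 1.87-fold lower than control at 24 h (log2 −0.90, SE 0.09, limma adjusted p = 0.00011) and fell by 1.12 from 3 to 24 h (limma adjusted p = 6e-05). The 3 h value of 0.22 missed the threshold (limma adjusted p = 0.085) and was −0.03 with median scaling.

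Within an array, the log2 ratio of Cd86 to the brighter Cd80 probe ran from −0.49 to −0.38 on control arrays, from 0.21 to 0.52 on Ph3h arrays and from −1.80 to −1.54 on Ph24h arrays. The ratio of Cd274 to that probe changed by 0.34 at 3 h and −1.04 at 24 h, and that of Cd40 by −0.41 and −1.71. These ratios did not overlap with control at either time (two-sided exact permutation test, p = 0.1 for each, the smallest possible).

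**Figure D3:**
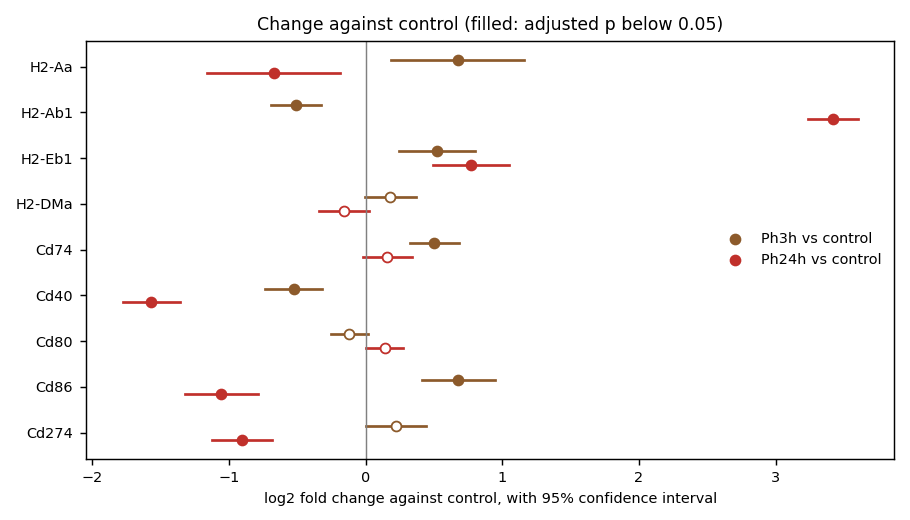
Log2 fold change of the 9 tested genes against control at 3 h (brown) and 24 h (red), with 95% confidence intervals. Filled points passed an adjusted p of 0.05. H2-Ab1 at 24 h, at 3.42, lies outside the range of all other values, while Cd86 changed from 0.68 at 3 h to −1.06 at 24 h.

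Counted over the 9 tested members, 4 were higher (H2-Aa, H2-Eb1, Cd74, Cd86) and 2 lower (H2-Ab1, Cd40) at 3 h. Of all genes tested, 27.9% were called higher and 25.9% lower in this comparison. At 24 h, 2 members were higher (H2-Ab1, H2-Eb1) and 4 lower (H2-Aa, Cd40, Cd86, Cd274), against 29.9% and 33.2% of all genes. With median scaling the members split as 1 against 3 at 3 h and 1 against 7 at 24 h, higher against lower. Under that scaling, 33.7% of all called genes were higher at 3 h and 23.9% at 24 h. From 3 to 24 h, 2 were higher (H2-Ab1, Cd80) and 6 lower, all but H2-Eb1, against 20.4% and 24% of all genes. All 9 changed over the 3 groups by limma's F test, as did 70.5% of all genes. The median log2 change of the members was 0.22 at 3 h and −0.16 at 24 h, and that of all genes 0.07 and 0.01. Both comparisons with control used the same control arrays.

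**Figure D4:**
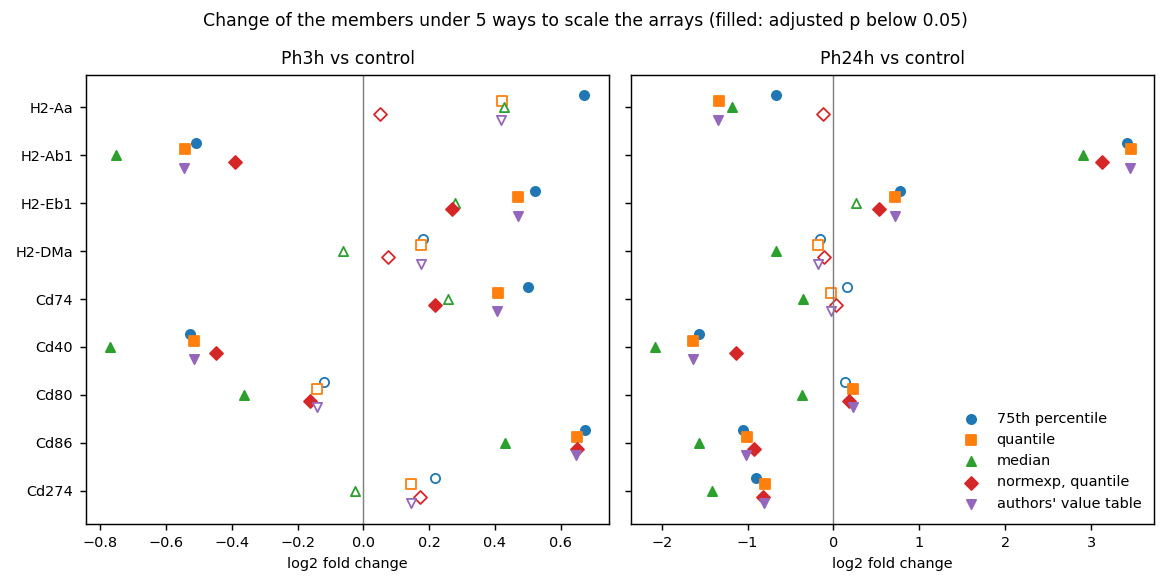
Log2 fold change of the 9 tested genes at 3 h (left) and 24 h (right) with the arrays scaled in 5 ways, named in the legend, filled where the adjusted p was below 0.05. H2-Ab1, Cd40 and Cd86 kept their side of 0 and of the threshold in all 5 at both times, while Cd74 and Cd80 lay on both sides of 0 at 24 h.

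The rest of the pathway was read from lists of 65 tested genes. Of these, 22 rose and 23 fell at 3 h, while 11 rose and 33 fell at 24 h, where the shares over all genes were 27.9% and 25.9% at 3 h and 29.9% and 33.2% at 24 h. The even split at 3 h depended on the scaling, with 17 higher and 30 lower after quantile normalization and 9 and 30 after median scaling, which gave 6 and 53 at 24 h. Of all called genes, 42.9% were higher at 3 h with quantile normalization. With median scaling, 33.7% were higher at 3 h and 23.9% at 24 h. The median log2 change of the 65 genes was −0.04 at 3 h and −0.20 at 24 h. In the MHC class II pathway, 5 of 11 tested genes rose and 4 fell at 3 h, and 2 rose and 4 fell at 24 h. H2-DMb1, the partner chain of H2-DMa, fell by 0.40 and 0.69 (limma adjusted p = 0.0015 and 6.5e-05). H2-Oa, a chain of the H2-O inhibitor of H2-DM, fell by 1.09 at 3 h (limma adjusted p = 0.0026) and was at −0.10 at 24 h (limma adjusted p = 0.68). Lgmn, an endosomal protease, was 0.32 higher at 3 h and fell by 0.88 at 24 h (limma adjusted p = 0.013 and 6.8e-05). March8, a ubiquitin ligase that takes class II and CD86 off the cell surface, fell by 0.32 and 0.70 (limma adjusted p = 0.0046 and 7.1e-05).

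Among 7 tested genes listed as class II promoter factors, 1 was higher and 4 lower at each time, these 4 including the class I regulator Nlrc5. Of all genes, 27.9% were higher and 25.9% lower at 3 h, and 29.9% and 33.2% at 24 h. Rfxank, a subunit of the RFX complex on the X box, was 0.14 higher at 3 h (limma adjusted p = 0.17) and 1.43 higher at 24 h (limma adjusted p = 4.9e-06). Rfxap, another RFX subunit, fell by 0.45 and 0.87 (limma adjusted p = 0.03 and 0.0013), and Nfyb, a subunit of the Y box factor NF-Y, fell by 1.04 and 0.73 (limma adjusted p = 0.00058 and 0.0029). Nlrc5, the class I counterpart of CIITA, fell by 1.10 and 0.42 (limma adjusted p = 1.7e-05 and 0.0016). Rfx5 was not well above background.

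In the MHC class I pathway, 3 of 13 genes rose and 4 fell at 3 h, against 27.9% and 25.9% of all genes. At 24 h, 3 rose and 5 fell, against 29.9% and 33.2% of all genes. Tap1, a subunit of the peptide transporter, fell by 0.68 and 1.66 (limma adjusted p = 0.00029 and 2.6e-06), and Erap1, which trims peptides, fell by 1.53 at 24 h (limma adjusted p = 5.6e-05). The class I chain H2-M3 fell by 0.75 and 1.08 (limma adjusted p = 3.2e-05 and 4.2e-06), and Pdia3, a chaperone of class I loading, was 0.40 and 0.83 higher (limma adjusted p = 0.0067 and 0.00013). Of 4 immunoproteasome genes, 2 were higher at 3 h, among them Psme1 (0.61, limma adjusted p = 0.00012), and 3 were lower at 24 h. These 3, Psmb9, Psmb10 and Psmb8, fell by 0.80, 0.56 and 0.53.

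Among 14 other costimulatory and inhibitory ligands and adhesion genes, 6 rose and 5 fell at 3 h, against 27.9% and 25.9% of all genes. At 24 h, 3 rose and 7 fell, against 29.9% and 33.2% of all genes. These counts include Cd70 at 3 h, above background on no control or Ph3h array, and Tnfsf18 at 24 h, above background on 1 control and no Ph24h array. Cd83, which stabilizes class II and CD86 on the surface of mature presenting cells, was 2.37 higher at 3 h and fell by 1.49 at 24 h (limma adjusted p = 8.2e-06 and 5.7e-05). Icosl, the ligand of ICOS, fell by 0.77 and 1.43 (limma adjusted p = 5.6e-05 and 2.1e-06). Pdcd1lg2, the second ligand of PD-1, fell by 1.30 at 24 h (limma adjusted p = 0.013) and was well above background on 1 Ph24h array. Cd70, the ligand of CD27, was not well above background in control and was at least 3.71-fold higher at 24 h (limma adjusted p = 0.00011).

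**Figure D5:**
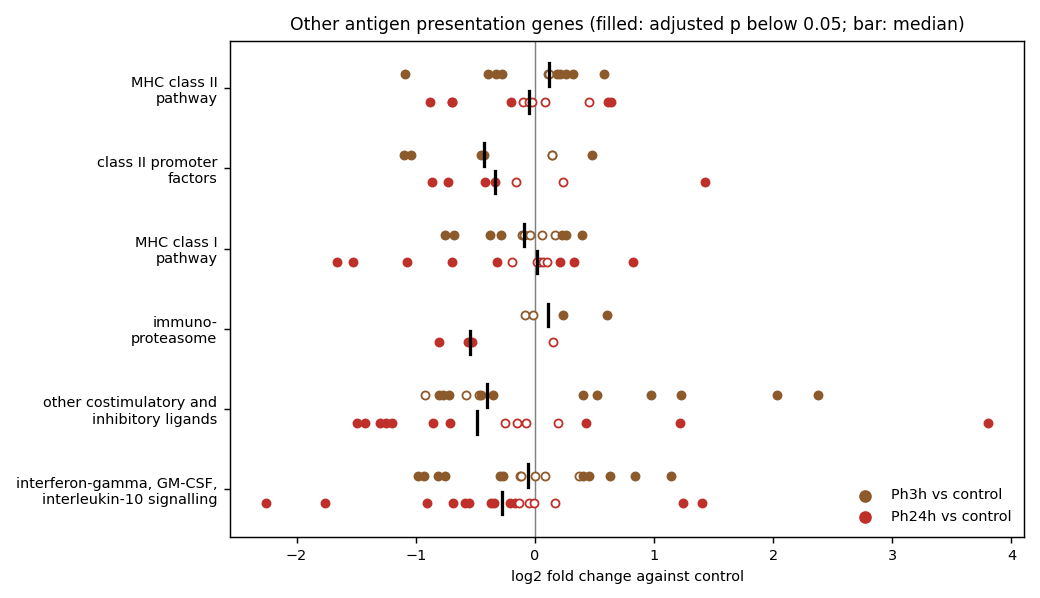
Log2 fold change against control at 3 h (brown) and 24 h (red) of the other genes of antigen presentation, one point per gene and one row per list. Filled points passed an adjusted p of 0.05, and black bars are medians. All but 1 of the 4 immunoproteasome genes are lower at 24 h, and Cd70 is the point at 3.81.

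The list of interferon-gamma, GM-CSF and interleukin-10 signalling, which set class II and costimulation in myeloid cells, held 16 tested genes. At 3 h, 5 rose and 6 fell, against 27.9% and 25.9% of all genes. At 24 h, 2 rose and 10 fell, against 29.9% and 33.2% of all genes. The 2 higher at 24 h were the inhibitors Socs3 (0.84 at 3 h and 1.40 at 24 h, limma adjusted p = 0.00032 and 1.9e-05) and Socs1 (1.24 at 24 h, limma adjusted p = 2.3e-05). Il10 was 1.14 higher at 3 h and fell by 2.26 at 24 h (limma adjusted p = 0.00022 and 5.8e-06), where it was well above background on 1 of 3 arrays.

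Cell type markers were summed as linear levels relative to the 75th percentile. Of 14 microglial markers, 13 passed the background filter and Sall1 did not. Those above background numbered 13 in control, 12 in Ph3h and 11 in Ph24h microglia, and their sum, carried by bright genes such as Csf1r and Tyrobp, was 1554 to 1668 on control arrays, 2031 to 2226 on Ph3h arrays and 1452 to 1504 on Ph24h arrays. Markers of resting microglia were lower at 24 h, Cx3cr1 by 23.5-fold (limma adjusted p = 1.1e-06) and Olfml3 by 7.36-fold (limma adjusted p = 2.2e-06), and neither P2ry12 nor Gpr34 was well above background on any Ph24h array. Cells that express class II strongly were looked for among 8 dendritic cell markers, of which 7 were measured. Their sum was 8.34 to 9.26 on control arrays, 8.99 to 10.24 on Ph3h arrays and 3.32 to 3.83 on Ph24h arrays. Cd209a was not above background. Whether such cells had a part in the changes of the class II genes was not tested. The markers of this list split at 24 h. Flt3 was at least 18.7-fold higher (limma adjusted p = 5.9e-05), and Clec9a and Zbtb46 were 1.26 and 0.75 higher (limma adjusted p = 0.00087 and 0.0023). Ccr7 was called higher too (limma adjusted p = 0.002), but was well above background on 1 Ph24h array only. Itgax and Batf3, the brightest of the list in control, fell by 1.66 and 2.10 (limma adjusted p = 1.8e-05 and 3.8e-07). Xcr1 was not called. Of 5 B cell markers 2 were measured, and Ms4a1 and Pax5 were among those not above background on any array. The sum of the measured 2 was 1.53 to 1.63 on control arrays, 3.47 to 4.29 on Ph3h arrays and 0.787 to 0.816 on Ph24h arrays. Both rose at 3 h, and at 24 h they went opposite ways, Cd79a being 2.16 higher (limma adjusted p = 7.2e-05) while the brighter Cd79b fell by 1.88 (limma adjusted p = 6.3e-06). Of 5 T cell markers 2 were measured, with a sum of 1.42 to 1.57 in control, 1.94 to 2.26 at 3 h and 2.58 to 2.91 at 24 h. Nearly all of it was Cd3e, which was 0.93 higher at 24 h (limma adjusted p = 6.3e-05), and Cd3d, Cd3g and Cd8a were below background.

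Of 6 border macrophage markers 3 were measured, with a sum of 10.58 to 10.72 on control arrays, 16.1 to 17.5 on Ph3h arrays and 24.7 to 29.1 on Ph24h arrays, and Cd163, Lyve1 and F13a1 were not above background. At 24 h this sum was mostly Pf4, which was 2.07 higher than in control (limma adjusted p = 1e-06), while Mrc1 fell by 1.45 (limma adjusted p = 1.3e-05) and Cbr2 was at 0.23 (limma adjusted p = 0.37). Of 16 markers of neurons and of SH-SY5Y cells, 14 were measured. Their sum was 1.43 to 1.58 on control arrays, 1499 to 1630 on Ph3h arrays and 2263 to 2611 on Ph24h arrays. In the fed groups it was mostly Vgf, at 10.40 in Ph3h and 11.13 in Ph24h microglia (log2). Not all the markers rose: Gata2 was not called at either time, and Gata3 was lower at 3 h (limma adjusted p = 0.025). The sum differed between the groups, so it cannot be told apart from feeding and time. Its part in the changes described here was not tested. The sum of 6 measured oligodendrocyte markers, 260.5 to 320.9 in control, was 413.3 to 471.1 at 3 h and 206.6 to 240.3 at 24 h, and that of 6 astrocyte markers overlapped between the groups (14.9 to 19.1 over all arrays).

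Over the 9 arrays, each member was set beside the genes whose levels followed it most closely. The points share the 3 groups, so these correlations describe the order of the groups and carry no test. Cd40 was most like Ndufb11, Smyd2 and Rxrb (Pearson r = 0.998, 0.997 and 0.996), Cd274 like Arhgap18, Lgals3bp and Cpd (0.994, 0.994 and 0.993), and Cd86 like Asph and Fam174b (0.997 and 0.996). Cd74 was most like Traf5, Rsrc2 and Clp1 (0.985, 0.985 and 0.979), Cd80 like Donson, Nabp1 and Il1f9 (0.981, 0.960 and 0.959), H2-Eb1 like Cacnb1 and Dbnl (0.982 for each), H2-DMa like Ulbp1 (0.957) and H2-Aa like Rtn1 (0.985). The 3 nearest to H2-Ab1 (0.998 for each) had no gene symbol. Among the members, r was 0.954 between Cd86 and Cd274, −0.975 between H2-Ab1 and Cd274, and −0.309 between H2-Ab1 and Cd74.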

How the data were processed

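RNA of 9 microglial cultures was hybridised by the authors to one-color Agilent arrays with 60-base probes, and spots were read with Agilent Feature Extraction 10.7.3.1. The deposited scanner files hold intensities corrected for background, with outlier flags and a call for signal above background. A second deposited table holds log2 values centred per probe. No source used here says how its arrays were scaled to each other. It agreed in direction with the scanner values (across 32401 probes, r = 0.993 at 3 h and 0.978 at 24 h), and its column medians ran from −0.0712 to 0.0978.

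Here flagged spots were left out, spots of a probe averaged, log2 intensities set relative to the 75th percentile of each array, and probes kept if well above background on at least 1 array (34381 probes). The brightest probe stood for a gene. Groups were compared with limma 3.58.1 in R 4.3.3, tested on simulated data, at an adjusted p of 0.05. A probe not above background in a group got a bound, from the lowest signal called above background. Members and lists were chosen with earlier results of these data known. The text names all members, up to 4 changed genes of each list by size of change, and the 3 genes most correlated with each member, except a few that are not reported here. Marker genes named singly were chosen after their values were seen. Alternatives covered scaling, background, filter, probe averaging, slide, replicate number and left-out arrays. Replicates 1 and 2 of all groups lay on slide 1, and replicate 3 on slide 2. Replicates correlated at 0.981 to 0.990.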

Additional observations from a re-analysis of the deposited data

Results flagged for a closer look

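For 8 of the 9 tested genes the change differed between 3 h and 24 h of feeding by limma's test of the difference between the fed groups. Of all genes tested, 20.4% were called higher and 24% lower at 24 h in the same comparison. On the log2 scale this difference was 3.92 for H2-Ab1 and 0.26 for Cd80, both higher at 24 h. It was −1.35 for H2-Aa, −0.34 for H2-DMa, −0.34 for Cd74, −1.04 for Cd40, −1.73 for Cd86 and −1.12 for Cd274, all lower at 24 h. H2-Aa was not well above background in either fed group, and the difference of Cd80 was −0.01 with median scaling.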

How the results depend on the processing

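Across 564 recomputed changes of the members, 518 kept their direction and their side of the threshold, 26 lost the call, 10 gained one and 10 changed sign. H2-Ab1 at 24 h ranged from 2.91 to 3.51 and Cd40 from −2.08 to −1.14. The sign changes with median scaling were H2-DMa (−0.063) and Cd274 (−0.025) at 3 h, Cd74 (−0.35) and Cd80 (−0.37) at 24 h, and H2-Eb1 (−0.015) and Cd80 (−0.0063) between the fed groups. Cd74 at 24 h was −0.023 with quantile normalization and −0.026 in the authors' table, and averaging over probes gave 0.40 for Cd80 at 3 h and 0.027 for Cd86 at 24 h. The cause was not tested, beyond the shift that median scaling adds to every gene. Of called genes, 51.8% were higher at 3 h and 47.4% at 24 h, against 33.7% and 23.9% with median scaling and 66.9% and 65% with no filter. Members called ranged from 4 to 7 at 3 h, 5 to 8 at 24 h and 6 to 8 between the fed groups, and from 5 to 6, 5 to 6 and 8 to 8 with single arrays left out. The other genes called ranged from 34 to 47, 38 to 59 and 34 to 46, and from 38 to 46, 38 to 45 and 40 to 44 with single arrays left out. Replicate numbers did not pair the arrays (deviations of same-numbered arrays correlated at −0.06 to 0.04). With replicate number as a block, 25 of 27 member changes kept their call and H2-Aa lost its 3 h (0.67, adjusted p = 0.062) and 24 h (−0.67, adjusted p = 0.054) calls. Dim signal limits H2-Aa, Ciita and the second Cd86 probe.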
